A study of Homo sapiens with 6 samples.

Results

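The comparison described here set BJ fibroblasts collected at day 0 against the same line at day 2 of a chemical protocol, and its members were the 4 RNA sequencing libraries whose time point label gave those days, out of 6 in the series. BJ cells are fibroblasts of human foreskin kept as an established line, so every library came from 1 cell line, labelled wild type. Day 0 cells (2 libraries) had been seeded on dishes coated with poly-D-lysine and grown in DMEM with 10% serum to a density of 80%. Day 2 cells (2 libraries) had then spent the first 2 days in a neuronal induction medium with 10 µM forskolin, and the labels call them FiNs, of the cell type induced neuron cells. The 2 libraries of day 5 were taken after a second medium. They entered here through the choice of genes tested, the scaling between libraries and the shared estimate of replicate spread. Without them 15851 genes were tested, against 16327. Some tested genes, such as IGF1, had 0 counts in the libraries of day 0 and day 2. The coating was shared by both days, whereas medium, forskolin and time changed together. Cells kept in the induction medium without forskolin, or in serum medium for the same time, were not analysed here, so these 3 factors cannot be told apart in any result below.

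Forskolin is a plant diterpene that binds adenylyl cyclase and raises cyclic AMP (cAMP). In the textbook pathway cAMP releases the catalytic subunits of protein kinase A (PKA), which phosphorylate the transcription factor CREB at promoters that carry a cAMP response element. The signal is limited by phosphodiesterases, which break down cAMP, by inhibitory subunits of PKA and by salt-inducible kinases, which hold CREB coactivators in the cytoplasm. Fibroblasts leaving serum are known to stop dividing and to lose actin-dependent transcription, and cAMP is known to do both in many cell types. The serum content of the induction medium is not stated here, and a part of serum in the results was not tested.

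The libraries held 23110118 and 26689379 counts at day 0 and 24944819 and 27941895 at day 2. Levels are CPM, read counts scaled to a common library size, and 3 counts corresponded to 0.103 to 0.125 CPM in these libraries. A gene was called when the edgeR quasi-likelihood test gave a Benjamini-Hochberg adjusted p under 0.05. Of 16327 genes tested, 66.8% were called, 5457 higher at day 2 (33.4%) and 5455 lower (33.4%). Nothing in the labels states that libraries of the same day were grown separately. The p-values therefore describe only how far these libraries differ among themselves, which may be technical. That spread was small, with a common coefficient of variation of 3.33%, and 1692 of the higher and 1931 of the lower calls were of changes under 0.5 on the log2 scale. A second test against a 2-fold change called 12.5% of genes, 1141 higher (6.99%) and 904 lower (5.54%). Scaling by library totals in place of TMM factors moved the median gene by -0.18 on the log2 scale and gave 4249 higher and 6902 lower, or 38.1% of calls higher against 50.01%. Changes below are relative to the TMM scaling, and a group whose balance turned with library totals is named as such. Counts of list or term members called are to be read against 33.4% higher and 33.4% lower over all genes tested.

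**Figure D1:**
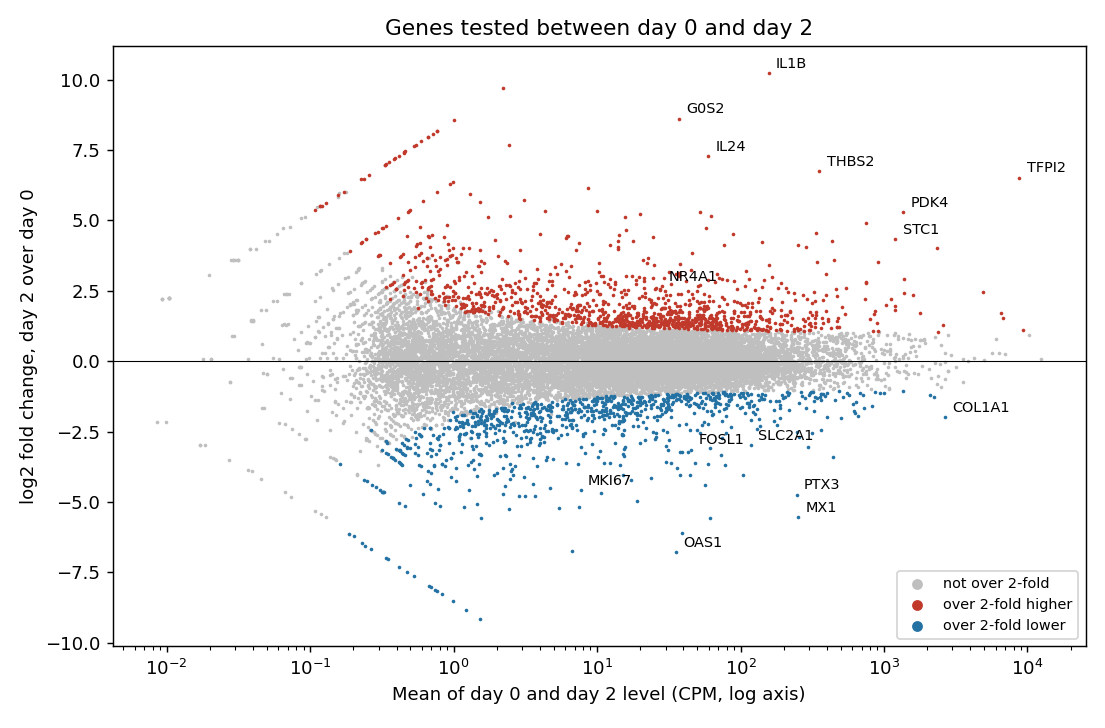
Each point is 1 of the genes tested, with its mean level over day 0 and day 2 in CPM on a log axis and its log2 fold change, and colours mark the 1141 genes over 2-fold higher and the 904 over 2-fold lower. Large changes reached from barely detected genes to TFPI2, and the slanted lines of points at the left are genes with 0 or few counts on 1 day.

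Mesenchymal markers were high on both days and those of other cell types were mostly near 0, with some exceptions. VIM, the mesenchymal intermediate filament gene, held 4841 and 4853 CPM in the day 0 pair and 5046 and 5035 CPM in the day 2 pair. Of the 58 markers of epithelium, endothelium, leukocytes, glia and melanocytes, muscle, bone and fat, and pluripotent cells, 40 were under 1 CPM in all 4 libraries. The defining leukocyte marker PTPRC, the glial factor SOX10, the epithelial cadherin CDH1, the endothelial cadherin CDH5 and the muscle factor MYOD1 had at most 1 count in any library. Other markers of the same lists were expressed. The endothelial marker TEK was at 70.4 CPM at day 0 and 78.03 CPM at day 2, and EGFL7 at 14.3 and 16.6 CPM. PPARG, of fat, was at 38.97 and 47.5 CPM, and SOX9, of the same list, at 51.6 and 28.2 CPM. The melanocyte marker PMEL rose from 1.72 to 7.28 CPM. Summed over the 10 epithelial markers, the level was 55.5 and 56.9 CPM in the day 0 pair and 45.5 and 46.3 CPM in the day 2 pair, most of it from the keratins KRT8 and KRT18. Summed over the 10 leukocyte markers it was 96.9 and 98.5 CPM against 132 and 134 CPM, nearly all from CD68, a lysosomal protein that fibroblasts also make.

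The largest changes joined secreted signals, a coagulation receptor and antiviral genes. IL1B, the proinflammatory cytokine interleukin-1 beta, had 0.276 and 0.2404 CPM in the day 0 pair and 313 and 315 CPM in the day 2 pair. MAP3K9, a kinase upstream of JNK, rose from near the detection limit, at 0.0788 and 0.137 CPM in the day 0 pair and 5.78 and 6.28 CPM in the day 2 pair (log2 fold change 5.71 ± 0.36). THBD, thrombomodulin, which turns thrombin towards anticoagulation, had 1.93 and 3.12 CPM in the day 0 pair and 103 and 101 CPM in the day 2 pair, a rise of 39.6-fold (edgeR adjusted p = 8.8e-18). BMP5, a bone morphogenetic protein, rose 37.3-fold and TCIM, a small regulator of WNT signalling, 35.2-fold. In the other direction, ALDH1A1, which makes retinoic acid, had 11.1 and 9.96 CPM in the day 0 pair and 0.291 and 0.2603 CPM in the day 2 pair (37.5-fold lower, edgeR adjusted p = 1.7e-10). PTX3, a secreted pentraxin of innate immunity, had 471 and 482 CPM in the day 0 pair and 17.9 and 17.6 CPM in the day 2 pair and was 26.8-fold lower. GDF6, a growth factor of the BMP family, ANK1, an ankyrin of the membrane skeleton, and SYBU, which links vesicles to microtubule motors, fell 27.5-fold, 27.4-fold and 27.5-fold. The 2 libraries of each day lay on their own side of the other day for each of these genes. They were chosen for large changes, so this is no separate support.

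Genes that make, sense and break down cAMP were mostly higher, and the largest rises were in its breakdown. Of 35 tested members, 19 were higher and 8 lower, with a median log2 fold change of 0.25 against 0.00304 over all genes. PDE3B, a phosphodiesterase, had 0.355 and 0.0687 CPM in the day 0 pair and 8.28 and 8.55 CPM in the day 2 pair. PDE1C, a calcium-activated phosphodiesterase, had 9.62 and 7.83 CPM in the day 0 pair and 80.7 and 82.1 CPM in the day 2 pair, and PDE4D, which is specific for cAMP, had 2.601 and 2.06 CPM in the day 0 pair and 19.8 and 18.2 CPM in the day 2 pair. Their log2 fold changes were 5.34 ± 0.32, 3.23 ± 0.07 and 3.03 ± 0.12, and PDE3A, PDE8A, PDE7B, PDE4B and PDE7A also rose over 2-fold. PDE4A moved the other way, from 39.8 to 24.6 CPM. The term for cyclic-nucleotide phosphodiesterase activity in the deposited annotation had the highest median of the 2454 gene ontology terms counted, with 12 of 20 members higher and 3 lower.

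Within the pathway the synthesis side was split. ADCY3, an adenylyl cyclase, went from 51.8 to 109 CPM, while ADCY7, of the same family, had 43.002 and 43.9 CPM in the day 0 pair and 11.4 and 11.2 CPM in the day 2 pair and fell 3.84-fold (edgeR adjusted p = 1.3e-12). ADCY9 rose by 0.23 ± 0.04 on the log2 scale and ADCY6 fell by 0.10 ± 0.04. PRKAR2B, a regulatory subunit of PKA, rose from 46.5 to 196 CPM and PRKAR1A, another, from 305 to 566 CPM. Of the catalytic subunits, PRKACB rose from 35.96 to 57.5 CPM and PRKACA fell from 133 to 114 CPM. AKAP12, which anchors PKA, had 16.2 and 17.3 CPM in the day 0 pair and 117 and 117 CPM in the day 2 pair, and RGS2, which damps G protein signalling, had 28.5 and 26.4 CPM in the day 0 pair and 161 and 163 CPM in the day 2 pair. Both rose over 2-fold.

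CREB family genes gave no common direction, since 8 of 15 were higher and 4 lower with TMM scaling and 5 higher and 6 lower with library totals. CREB5 had 1.81 and 1.55 CPM in the day 0 pair and 19.2 and 18.4 CPM in the day 2 pair, a rise of 11.2-fold. CREB3L1, a factor of the same family that resides in the endoplasmic reticulum membrane, went from 147 to 62.8 CPM. CREB1 rose from 16.9 to 25.2 CPM. CREM, whose short form is a classical feedback repressor, had 15.1 and 15.7 CPM in the day 0 pair and 18.02 and 17.4 CPM in the day 2 pair. Its call (log2 fold change 0.20 ± 0.08, edgeR adjusted p = 0.043) was lost with DESeq2, with either other scaling, with no count filter, without the day 5 libraries and without any one of the 6 libraries, its adjusted p lying between 0.041 and 0.89 across the alternatives. The salt-inducible kinase SIK1, known as a CREB target, has a near-identical copy in the table, SIK1B, named here after its values were seen. The row of SIK1 had at most 0.315 CPM in any library, and that of SIK1B had 5.79 and 6.11 CPM in the day 0 pair and 16.1 and 16.2 CPM in the day 2 pair (log2 fold change 1.44 ± 0.08, edgeR adjusted p = 3.6e-11). Reads of these copies cannot be told apart, so neither row alone gives the level of the kinase. SIK2 went from 73.8 to 159.7 CPM.

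Immediate early genes are the first to answer a signal, and at day 2 they held a mixed pattern of 17 higher and 8 lower among 30. The orphan nuclear receptor NR4A2 had 13.1 and 14.7 CPM in the day 0 pair and 89.2 and 92.8 CPM in the day 2 pair, and NR4A1 had 8.71 and 6.83 CPM in the day 0 pair and 46.98 and 50.04 CPM in the day 2 pair. FOS itself rose from a low level, with 0.6701 and 0.584 CPM in the day 0 pair and 2.41 and 2.04 CPM in the day 2 pair, and EGR1 went from 12.2 to 18.9 CPM. The FOS-related genes parted. FOSL2 had 55.4 and 57.2 CPM in the day 0 pair and 172 and 172 CPM in the day 2 pair (log2 fold change 1.61 ± 0.04), and FOSL1 (ENSG00000175592, chromosome 11, 65892049 to 65900573, GRCh38) had 77.9 and 84.2 CPM in the day 0 pair and 9.41 and 8.89 CPM in the day 2 pair (change of -3.15 ± 0.07 in log2 units, edgeR adjusted p = 4.0e-16). Feedback genes of the ERK pathway also parted, with DUSP4 higher, from 17.8 to 44.2 CPM, and DUSP6 and SPRY2 lower, from 112 to 71.6 CPM and from 28.3 to 11.2 CPM.

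Secreted and metabolic genes known to respond to cAMP moved most uniformly of the cAMP lists, with 16 of 19 tested members higher, 1 lower and a median log2 fold change of 2.99. AREG, amphiregulin, a ligand of the EGF receptor (ENSG00000109321, chromosome 4, 74445134 to 74455009), had 15.3 and 13.6 CPM in the day 0 pair and 272 and 267 CPM in the day 2 pair. INHBA, the activin A subunit, had 37.1 and 36.6 CPM in the day 0 pair and 301 and 285 CPM in the day 2 pair, and NAMPT, which makes the NAD precursor nicotinamide mononucleotide, had 55.2 and 55.05 CPM in the day 0 pair and 635 and 629 CPM in the day 2 pair. VGF, a secretory peptide precursor, had 0.907 and 1.17 CPM in the day 0 pair and 3.204 and 3.12 CPM in the day 2 pair. SLC2A1, the glucose transporter GLUT1, was the member that fell, with 209 and 211 CPM in the day 0 pair and 24.6 and 28.3 CPM in the day 2 pair (7.91-fold lower, edgeR adjusted p = 7.6e-18). PPARGC1A, a coactivator induced by cAMP in liver, did not pass the test (log2 fold change -0.10 ± 0.23), and PCK1 and TH had 0 counts in all 4 libraries. The 4 libraries did not overlap between days for any of the called genes named here. A call already rests on a difference between days, so this is no separate support.

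The full cAMP response element, TGACGTCA, stood in the RefSeq promoter windows of 4 of the 37 matched members of the immediate early and cAMP-responsive lists (AREG, VGF, DUSP1 and JUND), or 10.8%, against 3.28% of the 11257 tested genes with a window. The windows run from 250 bases before to 50 after the annotated start (300 bases, GRCh38.p14), and both strands were searched. AREG and VGF are shown because they rose most among those 4. The element, in capitals, began 65 bases before the start of AREG (chr4:74444886-74445185, plus strand) and 79 bases before that of VGF (chr7:101165520-101165819, minus strand).
AREG: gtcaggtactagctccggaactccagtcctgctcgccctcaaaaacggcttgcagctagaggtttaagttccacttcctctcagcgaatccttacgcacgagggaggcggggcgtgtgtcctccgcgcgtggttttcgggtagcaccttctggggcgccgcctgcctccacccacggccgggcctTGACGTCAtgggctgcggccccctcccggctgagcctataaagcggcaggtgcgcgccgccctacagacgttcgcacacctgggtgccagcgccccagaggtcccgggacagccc
VGF: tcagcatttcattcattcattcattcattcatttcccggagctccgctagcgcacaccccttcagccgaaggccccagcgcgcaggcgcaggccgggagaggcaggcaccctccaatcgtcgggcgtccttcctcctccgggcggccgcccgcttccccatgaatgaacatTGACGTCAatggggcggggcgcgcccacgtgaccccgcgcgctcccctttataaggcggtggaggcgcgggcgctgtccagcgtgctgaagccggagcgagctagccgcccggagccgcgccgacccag
Among genes over 2-fold higher the share with the full element was 3.05%, below that of all tested genes, and among those over 2-fold lower it was 1.85%. In the DNA replication and mitosis lists, which mostly fell, the element was in 6 of 71 windows, or 8.45%, so a share above that of all tested genes was not particular to the cAMP lists. A match describes letters only and was not tested for binding.

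Inflammatory signals rose in part. In the interleukin-1 family both ligands rose, with IL1A at 0.197 and 0.275 CPM in the day 0 pair and 17.4 and 16.9 CPM in the day 2 pair. Their receptor gene IL1R1 had 142 and 136 CPM in the day 0 pair and 467 and 472 CPM in the day 2 pair, and the accessory chain IL1RAP went from 6.04 to 14.4 CPM. MYD88, the adaptor through which the receptor signals, had 86.1 and 91.9 CPM in the day 0 pair and 38.9 and 39.4 CPM in the day 2 pair and fell 2.27-fold (edgeR adjusted p = 2.4e-12). IL1RN, the antagonist, had 6 and 8 counts in the day 0 pair and 1 and 3 in the other, below the count filter. Of 10 tested members 6 were higher and 1 lower.

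Feedback inhibitors and some effectors of NF-kB rose, while the subunit genes NFKB1 and RELA did not. 15 of 23 tested members were higher and 5 lower, with a median of 0.66. The broader NF-kappa B signaling term of the deposited annotation was nearly even, with 32 of 82 higher and 29 lower. TNFAIP3, the ubiquitin-editing inhibitor A20, had 17.1 and 15.3 CPM in the day 0 pair and 123 and 129 CPM in the day 2 pair. NFKBIA, the inhibitor IκBα, had 48.05 and 50.03 CPM in the day 0 pair and 161 and 164 CPM in the day 2 pair. SOD2, mitochondrial superoxide dismutase, went from 394 to 1841 CPM. TNFAIP6, a hyaluronan-binding protein, had 1.77 and 1.51 CPM in the day 0 pair and 27.1 and 25.4 CPM in the day 2 pair. NFKB1 fell from 30.7 to 24.3 CPM, and RELA did not pass the test, at 98.7 to 92.8 CPM. PTX3, known as an NF-kB target, fell as given above, and the complement genes C3 and CFB fell from 49.1 to 22.7 CPM and from 11.97 to 5.32 CPM.

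Chemokines moved both ways. The neutrophil-attracting CXCL8 had 34.7 and 35.2 CPM in the day 0 pair and 263 and 247 CPM in the day 2 pair, CXCL5 had 2.88 and 3.47 CPM in the day 0 pair and 39.5 and 38.3 CPM in the day 2 pair, and CCL20 had 0.394 and 0.687 CPM in the day 0 pair and 12.1 and 11.9 CPM in the day 2 pair. CXCL10, which is induced by interferon, went down from 15.2 to 8.75 CPM, CCL2, which attracts monocytes, from 108 to 72.5 CPM, and CXCL6 from 1.94 to 0.378 CPM. IL24, a cytokine of the IL-10 family, had 0.631 and 0.858 CPM in the day 0 pair and 119 and 117 CPM in the day 2 pair, LIF, which signals through gp130, went from 155 to 479.7 CPM, and GDF15, a stress-induced cytokine, from 69.1 to 834 CPM. IL6 rose less, from 8.38 to 12.6 CPM. Of 27 tested cytokines and chemokines, 13 were higher and 8 lower.

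Prostaglandin genes moved both ways, with the inducible and the constitutive cyclooxygenase on opposite sides. PTGS2, the inducible cyclooxygenase, had 26.96 and 27.9 CPM in the day 0 pair and 650.1 and 646 CPM in the day 2 pair, and PTGS1, the constitutive one, had 1425 and 1442 CPM in the day 0 pair and 729 and 724 CPM in the day 2 pair. PLA2G4A, which releases arachidonic acid, went from 12.5 to 45.8 CPM, the prostaglandin E synthase PTGES from 10.2 to 73.2 CPM, and SLCO2A1, which takes prostaglandins up, from 1.23 to 30.6 CPM. PTGER4, a receptor for prostaglandin E2 that raises cAMP, fell from 13.5 to 7.44 CPM. Over the list 7 of 16 were higher and 7 lower (6 higher and 8 lower with library totals). Among ligands of the EGF family, NRG1 had 73.7 and 76.4 CPM in the day 0 pair and 401 and 396 CPM in the day 2 pair. EREG had 29.9 and 28.4 CPM in the day 0 pair and 112 and 115 CPM in the day 2 pair, while HBEGF did not pass the test, at 8.61 to 9.86 CPM. ERBB3 and ERBB4, the receptor genes for NRG1, were below the count filter, with at most 0.343 CPM in any library. EGFR went from 179.7 to 240.3 CPM and ERBB2 fell from 118 to 52.5 CPM.

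**Figure D2:**
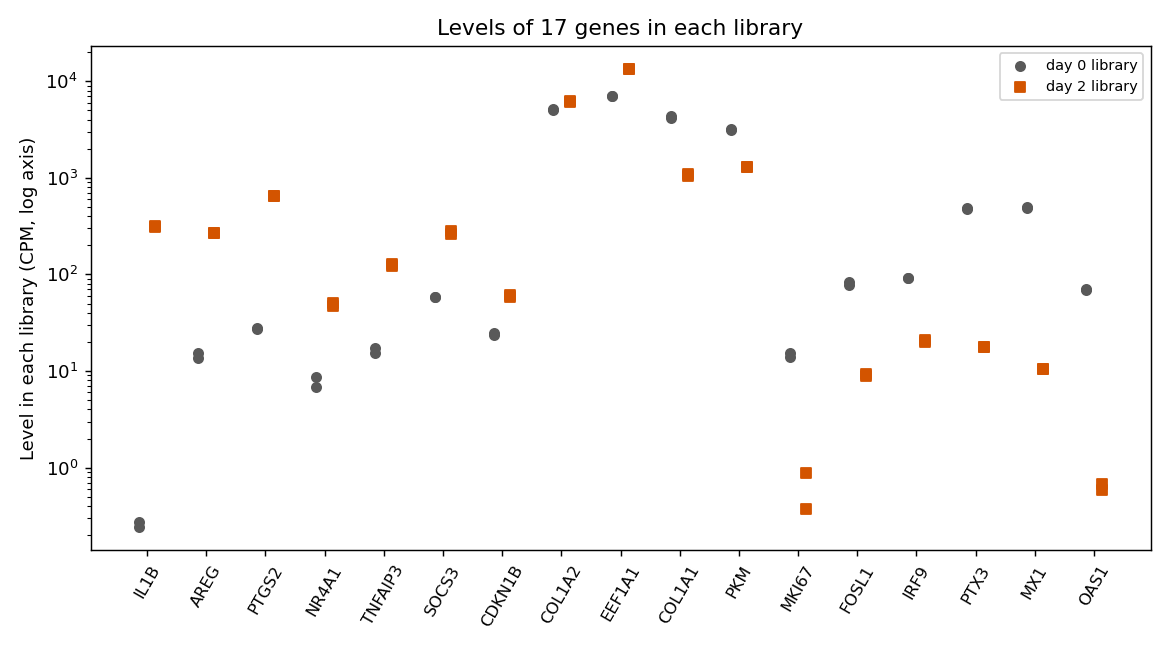
Levels of 17 genes in each library in CPM on a log axis, with circles for the 2 day 0 libraries and squares for the 2 day 2 libraries. The days are apart for each gene drawn, with IL1B near 0.258 CPM at day 0 and 314 CPM at day 2, and MX1 near 495 CPM and 10.6 CPM.

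Interferon-stimulated genes, which code for antiviral proteins, fell almost as a block from high starting levels. Of 38 tested members 36 were lower, 29 of them over 2-fold, and 0 higher, with a median log2 fold change of -2.93. IFIT1, which binds viral RNA, had 200.5 and 194 CPM in the day 0 pair and 12.98 and 11.3 CPM in the day 2 pair, and ISG15, a ubiquitin-like modifier, had 528 and 526 CPM in the day 0 pair and 61.6 and 65.7 CPM in the day 2 pair. BST2, tetherin, had 107 and 108 CPM in the day 0 pair and 4.49 and 5.69 CPM in the day 2 pair, and RSAD2, viperin, had 13.8 and 12.7 CPM in the day 0 pair and 0.166 and 0.0744 CPM in the day 2 pair. OAS1, which makes the activator of RNase L, was 111-fold lower and MX1 46.7-fold. The 2 members that did not pass the test were IFITM2, at 99.3 to 104 CPM, and ISG20. The summed level of the list was 5564 and 5566 CPM in the day 0 pair and at most 1612 CPM in the day 2 pair. IFITM3, IFITM1 and LGALS3BP fell less than 2-fold, by 0.76 ± 0.02, 0.84 ± 0.03 and 0.91 ± 0.03 on the log2 scale.

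Genes of interferon signalling moved both ways. IRF9, the DNA-binding part of the ISGF3 complex, had 91.1 and 91.2 CPM in the day 0 pair and 19.98 and 21.04 CPM in the day 2 pair, and STAT2, of the same complex, fell from 269.9 to 149 CPM. The RNA sensors DDX58 (RIG-I) and IFIH1 (MDA5) fell 5.78-fold and 5.26-fold, TLR3 fell from 4.72 to 0.304 CPM and IRF7 from 19.5 to 4.897 CPM. The receptor genes IFNGR1 and IFNAR1 rose from 31.4 to 84.3 CPM and from 31.4 to 40.5 CPM, and the kinase JAK1 from 153 to 322 CPM. SOCS3, the feedback inhibitor of JAK kinases, had 57.7 and 58.9 CPM in the day 0 pair and 259 and 279.9 CPM in the day 2 pair. IRF1 did not pass the test (log2 fold change 0.05 ± 0.05). IFNB1, interferon beta, had 2 and 8 counts at day 0 and 0 in both day 2 libraries, and IFNA1, IFNG, IFNL1 and IFNK had 0 counts in all 4. Over the list 9 of 26 were higher and 13 lower, against 33.4% each way over all genes tested.

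Genes of class I antigen presentation mostly fell. 11 of 17 tested members were lower and 3 higher. PSMB9, an immunoproteasome subunit, had 40.05 and 42.3 CPM in the day 0 pair and 14.3 and 14.1 CPM in the day 2 pair, PSME2 went from 172 to 64.9 CPM and TAP2, a peptide transporter, from 119 to 46.3 CPM. HLA-B fell from 1246 to 885 CPM, and B2M, the shared light chain, did not pass the test at 2704 to 2641 CPM. HLA genes share near-identical sequence, so the split of reads among them is uncertain.

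The 9-letter pattern AAANNGAAA, part of the interferon response element, was present in 25 of the 30 matched windows of interferon-stimulated genes, or 83.3%, against 7.28% of all tested genes with a window. Among genes over 2-fold lower the share was 11.6%, and among those over 2-fold higher 6.35%. OAS1 and OAS3, neighbours on chromosome 12, are shown as the members with the pattern that fell most. The pattern, in capitals, began 53 bases before the start of OAS1 (chr12:112906712-112907011, plus strand), and 142 and 11 bases before the start of OAS3 (chr12:112938224-112938523, plus strand).
OAS1: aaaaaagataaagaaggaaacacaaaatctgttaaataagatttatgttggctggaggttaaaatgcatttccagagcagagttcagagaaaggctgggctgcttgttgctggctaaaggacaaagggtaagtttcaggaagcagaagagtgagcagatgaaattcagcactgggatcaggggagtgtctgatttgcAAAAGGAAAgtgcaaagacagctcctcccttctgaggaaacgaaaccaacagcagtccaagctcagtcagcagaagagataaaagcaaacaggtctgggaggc
OAS3: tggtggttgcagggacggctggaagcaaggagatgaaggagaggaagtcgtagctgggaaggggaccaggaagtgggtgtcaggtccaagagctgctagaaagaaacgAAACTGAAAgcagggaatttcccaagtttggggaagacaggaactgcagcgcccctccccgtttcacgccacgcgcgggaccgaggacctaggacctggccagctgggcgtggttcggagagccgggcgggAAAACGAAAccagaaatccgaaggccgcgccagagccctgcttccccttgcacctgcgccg

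Cell division genes fell. In the list of DNA replication and G1/S genes 34 of 39 tested members were lower and 2 higher, with a median of -1.20, and in the mitosis list 35 of 43 were lower and 2 higher, with a median of -1.91. UHRF1, which maintains DNA methylation at replication forks, had 31.7 and 33.8 CPM in the day 0 pair and 1.498 and 1.97 CPM in the day 2 pair. CDC6, which loads the replicative helicase, had 7.25 and 6.97 CPM in the day 0 pair and 1.25 and 0.929 CPM in the day 2 pair, and the helicase subunit MCM5 went from 18.5 to 5.03 CPM. KIF20A, a kinesin of cytokinesis, had 14.3 and 13.1 CPM in the day 0 pair and 1.54 and 1.75 CPM in the day 2 pair, and UBE2C, which drives mitotic exit, had 5.36 and 6.63 CPM in the day 0 pair and 0.874 and 0.744 CPM in the day 2 pair. The exceptions were PCNA, the replication clamp, from 52.003 to 65.6 CPM, RRM1, from 52.5 to 60.7 CPM, CDC25B, from 136 to 158 CPM, and KIF18A, a mitotic kinesin, from 1.904 to 4.63 CPM. Bulk RNA cannot tell fewer dividing cells from less of these transcripts per cell.

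Several negative regulators of the cycle rose. CDKN1A, CDKN1B and CDKN1C code for p21, p27 and p57, which inhibit cyclin-dependent kinases. CDKN1A went from 1504 to 3640.3 CPM. CDKN1B had 24.7 and 23.5 CPM in the day 0 pair and 58.9 and 61.1 CPM in the day 2 pair, and CDKN1C had 5.203 and 5.19 CPM in the day 0 pair and 26.2 and 27.4 CPM in the day 2 pair. BTG1, an antiproliferative cofactor, had 30.5 and 28.4 CPM in the day 0 pair and 185 and 185 CPM in the day 2 pair, and the pocket protein RBL2, which represses cell cycle genes in resting cells, had 37.1 and 36.2 CPM in the day 0 pair and 99.8 and 96.8 CPM in the day 2 pair. RBL1, a pocket protein of cycling cells, fell from 3.32 to 1.04 CPM. CCND1, CCND2 and CCND3, the D cyclins, fell from 2805 to 1964 CPM, from 29.6 to 8.24 CPM and from 198 to 109.8 CPM, and their kinase CDK4 from 104 to 55.7 CPM. The stress-response genes of the list split, with SESN1 and ZMAT3 higher and GADD45A and SESN2 lower. Over the list 18 of 31 were higher and 11 lower (14 higher and 13 lower with library totals).

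The letters TTTGAA, the core of the cell cycle homology region known from mitotic promoters, were in 25 of the 71 matched windows of the DNA replication and mitosis lists, or 35.2%, against 10.0% of all tested genes with a window. The share was also above that of all tested genes among genes over 2-fold lower (14.5%) and over 2-fold higher (12.7%). MKI67, which codes for the proliferation antigen Ki-67, is shown because it fell most among mitosis genes with the pattern, 24.04-fold. It held the letters, in capitals, 47 and 29 bases before its start (chr10:128126374-128126673, minus strand).
MKI67: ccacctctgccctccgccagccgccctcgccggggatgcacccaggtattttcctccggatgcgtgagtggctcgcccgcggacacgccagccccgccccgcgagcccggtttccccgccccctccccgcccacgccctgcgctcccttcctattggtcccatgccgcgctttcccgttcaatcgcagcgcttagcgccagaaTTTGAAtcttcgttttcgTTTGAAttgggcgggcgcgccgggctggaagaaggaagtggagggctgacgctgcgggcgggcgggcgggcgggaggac

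**Figure D3:**
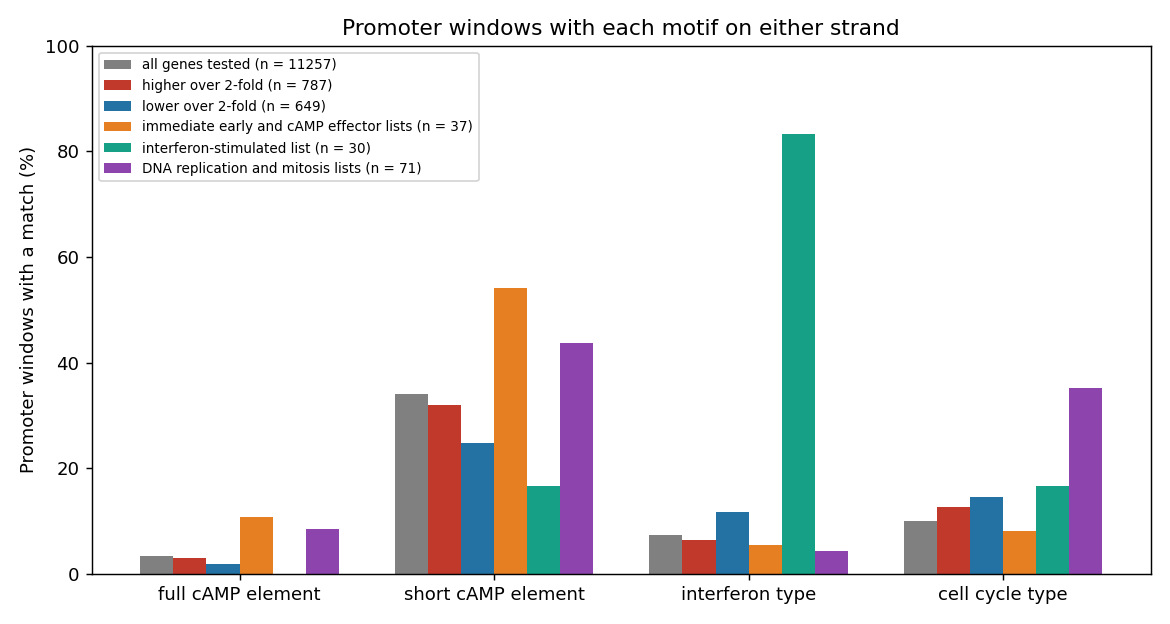
Share of RefSeq promoter windows of 300 bases with each motif on either strand, for all tested genes and 5 sets, with the number of windows in the legend. The interferon-type pattern reached 83.3% in the interferon-stimulated list against 7.28% of all tested genes, whereas the full cAMP element was no more frequent in genes over 2-fold higher (3.05%) than in all tested genes (3.28%).

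Genes that build ribosomes and mRNAs of the translation machinery moved in opposite directions. In the ribosome biogenesis list 26 of 36 tested members were lower and 6 higher, with a median of -0.56. POLR1A, the large subunit of RNA polymerase I, had 79.7 and 83.4 CPM in the day 0 pair and 33.8 and 32.5 CPM in the day 2 pair, and BOP1, which processes the large-subunit ribosomal RNA, had 40.99 and 45.7 CPM in the day 0 pair and 14.4 and 14.9 CPM in the day 2 pair. NOP56, a nucleolar protein that guides ribosomal RNA methylation, went from 66.3 to 34.7 CPM. In the list of translation factors and mRNAs with a 5′ terminal oligopyrimidine tract (TOP mRNAs) 23 of 31 were higher and 5 lower, with a median of 0.74 (20 higher and 7 lower with library totals). EEF1A1, an elongation factor and one of the most abundant mRNAs, had 7001 and 6985 CPM in the day 0 pair and 13445 and 13351 CPM in the day 2 pair. EIF4B had 287 and 283 CPM in the day 0 pair and 658 and 652 CPM in the day 2 pair, PABPC1 went from 284 to 657 CPM, and GAS5, a noncoding host of snoRNAs that carries a TOP tract, from 80.7 to 223 CPM. Among the list's 5 members that fell were EIF4G1, from 588 to 431 CPM, and EIF5A, from 188 to 134 CPM.

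The pathway annotation in the deposited table covers the same processes with other gene sets. Its Ribosome term had 111 of 205 tested members higher and 30 lower, or 90 and 28 of 133 when only protein-coding genes were counted, a choice made after seeing that terms also held pseudogene rows. The preribosome large subunit term had 22 of 25 lower and 2 higher, and Ribosome biogenesis in eukaryotes 50 of 94 lower and 20 higher. Proteasome was lower in 37 of 48 and higher in 3, Spliceosome lower in 68 of 144 and higher in 35, and Aminoacyl-tRNA biosynthesis lower in 23 of 45 and higher in 11.

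The endoplasmic reticulum chaperones rose in most cases, with 22 of 31 tested members higher, 2 lower and a median of 0.43 (18 higher and 7 lower with library totals). HSP90B1, the chaperone GRP94, had 402 and 386 CPM in the day 0 pair and 1349 and 1332 CPM in the day 2 pair, and DNAJB9, a co-chaperone induced by the sensor IRE1, had 21.2 and 23.3 CPM in the day 0 pair and 63.3 and 63.2 CPM in the day 2 pair. MANF, a secreted chaperone cofactor, went from 43.3 to 97.4 CPM. SEC61A1, the translocation channel, fell from 824 to 603 CPM. The ATF4 list was split, with 13 of 30 higher and 14 lower. ATF4 went from 222 to 363 CPM and the amino acid transporter SLC38A2 from 508 to 1289.9 CPM. DDIT3, the factor CHOP, fell from 16.6 to 10.9 CPM, ASNS, asparagine synthetase, from 14.04 to 9.501 CPM, and SLC7A1, which imports arginine and lysine, from 21.4 to 7.24 CPM.

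**Figure D4:**
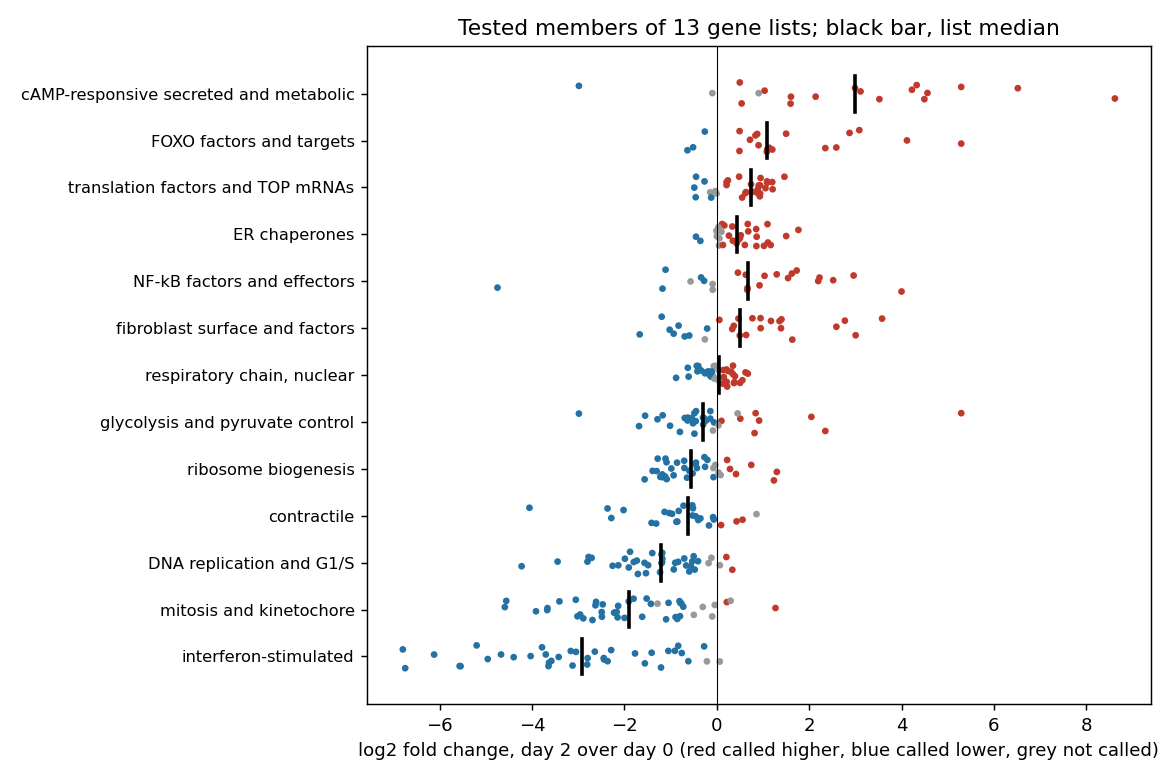
Each point is the log2 fold change of 1 tested member of 13 gene lists, red where called higher, blue where called lower and grey where not called, and the black bar is the list's median. The medians run from -2.93 for interferon-stimulated genes to 2.99 for cAMP-responsive secreted and metabolic genes, with ribosome biogenesis at -0.56 and TOP mRNAs at 0.74.

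Most genes of glucose use fell, while 2 kinases that inhibit pyruvate dehydrogenase rose. 23 of 34 tested members were lower and 8 higher. ENO1, enolase, had 1095 and 1113 CPM in the day 0 pair and 344 and 344 CPM in the day 2 pair, PKM, pyruvate kinase, had 3136 and 3206 CPM in the day 0 pair and 1304 and 1302 CPM in the day 2 pair, and LDHA, lactate dehydrogenase, had 523 and 519 CPM in the day 0 pair and 231 and 231 CPM in the day 2 pair. Glycolytic enzymes did not all move as far, since GAPDH went from 4101 to 4397 CPM, a difference that turned with library totals, and PGK1 from 473 to 403 CPM. PDK4, which inhibits pyruvate dehydrogenase, had 69.2 and 66.7 CPM in the day 0 pair and 2672 and 2643 CPM in the day 2 pair, and PDK1, another such kinase, had 11.6 and 11.4 CPM in the day 0 pair and 48.3 and 46.96 CPM in the day 2 pair. PDK2 fell from 52.2 to 30.04 CPM. TXNIP, which limits glucose uptake, had 524 and 527 CPM in the day 0 pair and 2684 and 2672 CPM in the day 2 pair. FOXO factors and their known targets rose, with 17 of 20 higher and 3 lower, a list that shares PDK4, TXNIP and SESN1 with others here. DEPP1, a FOXO-induced protein of autophagy, had 8.001 and 8.62 CPM in the day 0 pair and 143 and 146 CPM in the day 2 pair, and FBXO32, the ubiquitin ligase atrogin-1, had 7.02 and 7.83 CPM in the day 0 pair and 62.6 and 63.8 CPM in the day 2 pair.

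Lipid genes changed at storage and at synthesis. G0S2, which inhibits the lipase ATGL, had 0.197 and 0.172 CPM in the day 0 pair and 74.5 and 73.8 CPM in the day 2 pair, PLIN2, which coats lipid droplets, went from 123 to 540.0 CPM, and ABHD5, the coactivator of that lipase, from 16.8 to 46.7 CPM. LPIN1, a phosphatidate phosphatase, fell from 64.7 to 26.1 CPM. In the sterol and fatty acid list 17 of 33 were higher and 12 lower. INSIG1, the sterol sensor that holds back SREBP, had 25.6 and 24.3 CPM in the day 0 pair and 87.6 and 91.1 CPM in the day 2 pair, and HMGCS1, an early enzyme of the mevalonate pathway, had 25.6 and 22.8 CPM in the day 0 pair and 62.4 and 60.3 CPM in the day 2 pair. MVK, mevalonate kinase, fell from 17.2 to 6.998 CPM and FASN, fatty acid synthase, from 162 to 104 CPM.

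Nuclear-encoded respiratory chain subunits moved little, between -0.88 and 0.67 on the log2 scale, and none passed the 2-fold test. 18 of 38 were higher and 13 lower, which turned to 10 higher and 20 lower with library totals. Of NRF2 targets 15 of 30 were higher and 12 lower, also turning with library totals (12 higher and 14 lower). NQO1, a quinone reductase, had 836 and 840.0 CPM in the day 0 pair and 2751 and 2751 CPM in the day 2 pair, while HMOX1, heme oxygenase, fell from 24.2 to 13.5 CPM.

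Of 26 contractile genes tested, 22 fell and 3 rose. ACTG2, smooth muscle gamma actin, had 71.03 and 71.3 CPM in the day 0 pair and 3.83 and 4.68 CPM in the day 2 pair, CNN1, calponin, had 36.2 and 37.1 CPM in the day 0 pair and 7.28 and 6.95 CPM in the day 2 pair, and ZYX, zyxin of focal adhesions, had 279 and 282 CPM in the day 0 pair and 112 and 114 CPM in the day 2 pair. ACTA2, the myofibroblast actin, fell less, from 98.5 to 68.2 CPM, and the nonmuscle myosin MYH9 moved by -0.06 ± 0.02. SRF, the factor that drives many of them, fell from 48.8 to 29.05 CPM and its cofactor MRTFA from 51.4 to 28.97 CPM. The combined SRF and YAP list was split, with 13 of 25 higher and 9 lower (11 higher and 13 lower with library totals). CCN2 rose from 436 to 688 CPM, CCN1 did not pass the test at 345 to 349 CPM, and AJUBA fell from 98.5 to 36.3 CPM.

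Several ligands and secreted inhibitors of the TGF-beta and BMP pathways rose. GREM1, a secreted BMP inhibitor, had 215 and 215 CPM in the day 0 pair and 823 and 799 CPM in the day 2 pair. FST, which binds activin, had 75.4 and 75.4 CPM in the day 0 pair and 261 and 272 CPM in the day 2 pair, and BMP2 had 118 and 117 CPM in the day 0 pair and 339 and 343 CPM in the day 2 pair. TGFBI, a matrix protein induced by TGF-beta, had 3017 and 3046 CPM in the day 0 pair and 9994 and 9968 CPM in the day 2 pair. BMP4 fell from 84.9 to 49.3 CPM and ID2 from 25.5 to 9.13 CPM, while ID3 rose from 104 to 188 CPM. Over the list 19 of 34 were higher and 12 lower.

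Growth factors moved both ways. HGF had 159.5 and 157 CPM in the day 0 pair and 790.0 and 779.6 CPM in the day 2 pair, FGF7, the keratinocyte growth factor, had 85.9 and 88.9 CPM in the day 0 pair and 395 and 384 CPM in the day 2 pair, and GDNF, a neurotrophic factor, had 14.7 and 15.5 CPM in the day 0 pair and 87.4 and 81.7 CPM in the day 2 pair. IGFBP4, which binds insulin-like growth factors, had 1491 and 1539 CPM in the day 0 pair and 8230.4 and 8457 CPM in the day 2 pair. FGF5 fell from 28.8 to 9.35 CPM, NTF3, neurotrophin 3, from 10.3 to 3.05 CPM and PDGFB from 8.65 to 2.68 CPM. The PDGF receptors parted, PDGFRA going from 334 to 569.8 CPM and PDGFRB from 228 to 151 CPM. The whole list gave 15 of 33 higher and 11 lower (13 higher and 15 lower with library totals). In the WNT and NOTCH list 11 of 29 were higher and 11 lower, near the 33.4% each way of all genes tested. NKD2, a WNT feedback inhibitor, had 5.597 and 4.91 CPM in the day 0 pair and 37.2 and 37.6 CPM in the day 2 pair, WNT5A went from 173 to 426 CPM and DLL1, a NOTCH ligand, from 1.63 to 5.93 CPM. DKK1 fell from 10.3 to 3.99 CPM.

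The chains of type I collagen parted. COL1A1 (ENSG00000108821, chromosome 17, 50183289 to 50201632) had 4202 and 4359.6 CPM in the day 0 pair and 1046 and 1104 CPM in the day 2 pair, and COL1A2 (ENSG00000164692, chromosome 7, 94394561 to 94431232) had 4992 and 5106 CPM in the day 0 pair and 6134 and 6261 CPM in the day 2 pair. COL1A1 fell 3.98-fold (edgeR adjusted p = 2.5e-20) and COL1A2 rose 1.23-fold (edgeR adjusted p = 4.9e-12). Type I collagen is built from both chains. Among other collagens COL8A1 had 50.1 and 52.3 CPM in the day 0 pair and 314 and 309 CPM in the day 2 pair, COL7A1, of anchoring fibrils, went from 256 to 682 CPM, and COL4A1 and COL4A2, of basement membranes, from 1086 to 1862 CPM and from 1621 to 2911 CPM. COL3A1 went from 2541 to 2386 CPM and COL15A1 fell from 16.7 to 4.701 CPM. Over the list 14 of 23 were higher and 8 lower. P4HA3, a collagen prolyl hydroxylase, had 4.34 and 4.09 CPM in the day 0 pair and 112 and 109 CPM in the day 2 pair, and LOXL1 and LOXL2, of the crosslinking family, fell from 137 to 63.4 CPM and from 868 to 537 CPM, while LOX went from 151 to 440.1 CPM.

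Proteoglycans, matrix proteases and their inhibitors moved both ways. VCAN, versican, a large proteoglycan of provisional matrix, had 81.8 and 82.3 CPM in the day 0 pair and 709 and 701 CPM in the day 2 pair, and DCN, decorin, a small one of mature collagen, had 1049 and 1037 CPM in the day 0 pair and 273 and 264 CPM in the day 2 pair. THBS2, a matricellular protein, had 6.98 and 6.25 CPM in the day 0 pair and 699 and 709 CPM in the day 2 pair, and TNC, tenascin C, fell from 472 to 176 CPM. ADAMTS4 and ADAMTS5 code for proteases that cut versican and aggrecan, and ADAMTS5 had 102 and 98.9 CPM in the day 0 pair and 548 and 548 CPM in the day 2 pair and ADAMTS4 had 0.276 and 0.378 CPM in the day 0 pair and 7.699 and 7.77 CPM in the day 2 pair. TIMP3, their inhibitor in the matrix, had 269 and 275 CPM in the day 0 pair and 4429.7 and 4414 CPM in the day 2 pair. TFPI2, an inhibitor of plasmin, held 189 and 191 CPM in the day 0 pair and 17529 and 17263 CPM in the day 2 pair. That is 0.0190% of the TMM-scaled library size at day 0 and 1.74% at day 2. Plasminogen activator PLAT went from 531 to 1848 CPM. Of 27 tested proteases and inhibitors 17 were higher and 6 lower.

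Fibroblast surface and factor genes moved both ways. Of 27 tested surface and factor genes 18 were higher and 8 lower. TCF21, a mesenchymal transcription factor, had 150.2 and 158 CPM in the day 0 pair and 929 and 925 CPM in the day 2 pair, MME, the surface peptidase CD10, had 50.02 and 47.8 CPM in the day 0 pair and 337 and 331 CPM in the day 2 pair, and ZEB1 went from 97.5 to 249.9 CPM. NT5E, the surface enzyme CD73, had 435 and 430.1 CPM in the day 0 pair and 139 and 133 CPM in the day 2 pair, and THY1, CD90, had 417 and 436 CPM in the day 0 pair and 211 and 209.9 CPM in the day 2 pair. ENG and CD44 fell from 298 to 130.4 CPM and from 3256 to 1705 CPM. Of 29 integrins, laminins and cadherins 19 were higher and 6 lower (14 higher and 10 lower with library totals). Among integrins ITGAV, ITGA4 and ITGB8 rose over 2-fold, ITGB8 from 2.74 to 19.7 CPM, and ITGA3 and ITGA6, which bind laminin, fell from 272 to 102 CPM and from 44.99 to 17.3 CPM. The cadherin CDH2 fell from 32.9 to 11.1 CPM and the protocadherin PCDH7 from 18.5 to 1.75 CPM.

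**Figure D5:**
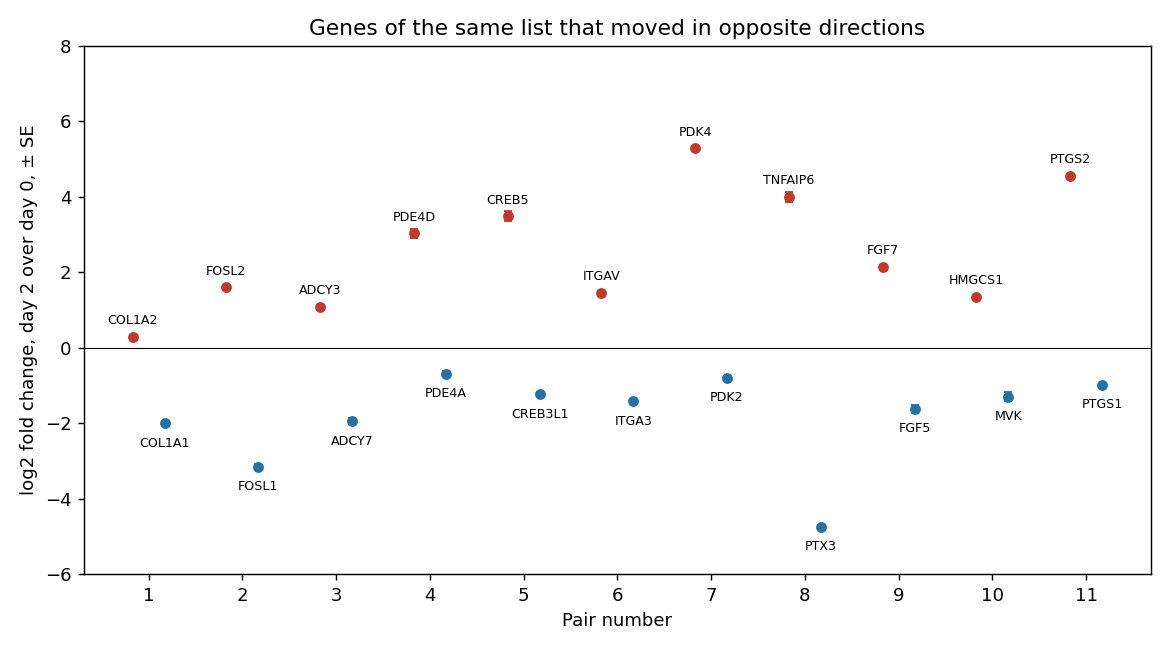
Log2 fold change with its standard error for 11 pairs of genes from the same list, chosen after their values were seen, the red member above 0 and the blue member below. In pair 1 COL1A2 is at 0.30 and COL1A1 at -1.99, and in pair 11 PTGS2 is at 4.56 and PTGS1 at -0.98.

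Neurogenic transcription factors were mostly not detectable at this depth, although the day 2 label names induced neuron cells. Of 29 neurogenic transcription factors 26 were under 1 CPM in all 4 libraries and 16 had no count in any, NEUROD1 among them, and SOX2 had 2 counts, in 1 day 2 library. SOX4, which is also active outside neurons, had 98.9 and 95.8 CPM in the day 0 pair and 202 and 197 CPM in the day 2 pair. Of 36 pan-neuronal genes 18 were tested, 6 of them higher and 7 lower. SCG2, a granin known as a cAMP target, had 1.22 and 0.962 CPM in the day 0 pair and 9.49 and 9.33 CPM in the day 2 pair, and DLG4, a scaffold of synapses, went from 43.8 to 66.7 CPM. UCHL1, a ubiquitin hydrolase abundant in neurons and in cultured fibroblasts, had 969 and 978 CPM in the day 0 pair and 540.4 and 536 CPM in the day 2 pair, MAP2 had 11.7 and 14.1 CPM in the day 0 pair and 3.995 and 4.87 CPM in the day 2 pair, and the adhesion molecule L1CAM had 6.86 and 8.104 CPM in the day 0 pair and 0.957 and 1.08 CPM in the day 2 pair.

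Genes known to restrain neuronal fate, listed together with splicing factors, moved both ways. REST, the repressor of neuronal genes, had 27.1 and 26.3 CPM in the day 0 pair and 34.8 and 34.5 CPM in the day 2 pair, and PTBP1, which blocks neuronal splicing, had 191 and 198 CPM in the day 0 pair and 233 and 239 CPM in the day 2 pair. PTBP2, the form of neurons, rose from 2.99 to 6.16 CPM and PTBP3 from 19.7 to 53.9 CPM. HDAC1 fell from 131 to 80.6 CPM and EHMT2 from 86.3 to 54.1 CPM. Over this mixed list 9 of 17 were higher and 5 lower, or 4 higher and 6 lower with library totals. The higher ones include PTBP2, and the lower ones the splicing factor CELF2, from 13.05 to 4.27 CPM. Among 32 axon guidance genes of the list 17 fell and 10 rose. The Axon guidance term of the deposited annotation had 68 of 159 higher and 59 lower. Over all genes tested 33.4% were higher and 33.4% lower. The receptor EPHB2 had 191 and 195 CPM in the day 0 pair and 46.8 and 44.1 CPM in the day 2 pair and SEMA6A had 72.6 and 76.6 CPM in the day 0 pair and 13.4 and 14.1 CPM in the day 2 pair, while SEMA5A had 74.4 and 79.98 CPM in the day 0 pair and 257 and 252 CPM in the day 2 pair and SEMA3C had 16.4 and 13.6 CPM in the day 0 pair and 55.6 and 59.3 CPM in the day 2 pair.

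Over the 296 pathway terms with 15 to 300 tested genes, 157 had a median above 0, and over the 2454 gene ontology terms 1289 did. Terms overlap and the table assigns them also to pseudogenes and clones. Among the highest medians were protein disulfide isomerase activity, with 14 of 18 higher and 1 lower, steroid hormone receptor activity, with 26 of 38 higher and 6 lower, and neutrophil chemotaxis, with 18 of 35 higher and 12 lower. The lowest held the type I interferon signaling pathway, with 34 of 51 lower and 7 higher, DNA replication origin binding, with 16 of 24 lower and 2 higher, and fructose and mannose metabolism, with 23 of 32 lower and 7 higher. The cAMP signaling pathway term had 70 of 150 higher and 48 lower.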

How the data were processed

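RNA sequencing libraries of BJ cells, 2 per day, were used. TruSeq libraries were made from DNase I-treated TRIzol extracts, per the labels' protocols. The authors deposited expected counts per gene, which are estimated counts with no scaling across libraries (per the file headers and values). Per the submitters' processing notes, reads were placed on GRCh38. Aligner, counting tool, annotation release and strandedness are not given in the sources used here, so reads of overlapping, antisense and near-identical genes cannot be told apart.

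Rows with no gene name (172 of 60843, 0.0430 to 0.0475% of counts at day 0 and day 2) were left out, and values (87.2% whole) were rounded. Where genes shared a symbol (76 symbols), the one with most counts stood for it. A single edgeR 4.0.16 model (R 4.3.3) by day took in all 6 libraries, with TMM factors and filterByExpr (minimum count 10, minimum total 15) at 3 residual degrees of freedom. The test was quasi-likelihood, and glmTreat with a log2 threshold of 1 tested for changes over 2-fold, both Benjamini-Hochberg adjusted over 16327 genes and two-sided. The standard error is the log2 fold change divided by the square root of F. Both tests were also run on simulated data, with 1 spread for all genes taken from the fit to these libraries. Real genes differ in spread. The quasi-likelihood test recovered 82% of 1.5-fold and 98% of 2-fold changes. The glmTreat test recovered 0% of 2-fold and 96% of 4-fold changes. A true 2-fold change lies at its threshold, so recovery near 0% there was fixed in advance. Changes were placed only in genes above a minimum mean count, so these shares do not cover genes with few counts. Coordinates came from GENCODE release 29 and promoter windows from RefSeq (GRCh38.p14), matched by symbol for 11257 of 16327 tested genes. These coordinate and promoter sources differ in their starts.

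The libraries compared and the 53 gene lists were chosen with earlier results of these data known, and lists are described by counts with no test. Genes were named by rule: the 12 largest over-2-fold changes each way with at least 5 CPM on the higher day, up to 6 called members per list, and fixed genes such as CREM, COL1A1 and REST. Other list members named in the text were chosen after their values were seen. No gene with at most 3 counts on one day reached 5 CPM on the other, so 1 CPM was used there, also after seeing the data. Counting error only is covered by floors and intervals. Alternatives were DESeq2 1.42.0, RLE factors, library totals, no count filter, a stricter one (1 CPM in 4 libraries), day 0 and day 2 alone, the replicate number as a block, and leaving out each library.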

Additional observations from a re-analysis of the deposited data

How the results depend on the processing

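With DESeq2, 755 genes were over 2-fold higher and 580 lower, against 1141 and 904, and the cause was not tested. With library totals the members higher were 5 in the CREB list, against 8, and 10 in the respiratory chain list, against 18. They were 8 in the collagen enzyme list, against 13, and 4 in the list of neuronal barriers and splicing factors, against 9. That scaling lowers every value by about the same amount. It therefore also turned the sign of small log2 fold changes, those of VIM (-0.13), IRF1 (-0.13), CCN1 (-0.17), GAPDH (-0.084) and IFITM2 (-0.12). Of the larger of each list's counts 594 of 598 values stayed within 1.5 times the main count, and of the smaller ones 586 of 598. Without 1 library the genes higher ranged from 4891 to 5524 and those lower from 4832 to 5592, and over 2-fold from 952 to 1137 and from 704 to 933. Replicate numbers did not pair the libraries, with a correlation of deviations of 0.00269 between day 0 and day 2. With the replicate block 5408 genes were higher and 5398 lower. Depth limits genes near the level of 3 counts, 0.103 to 0.125 CPM.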

Other observations

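Receptors and regulators of G protein signalling rose in 20 of 28 tested cases and fell in 5. EDNRB, an endothelin receptor, had 7.09 and 7.55 CPM in the day 0 pair and 169 and 169 CPM in the day 2 pair, and BDKRB2, a bradykinin receptor, had 265 and 262 CPM in the day 0 pair and 1210.4 and 1229 CPM in the day 2 pair. RGS4 and RGS5, which speed the turn-off of G proteins, had 5.597 and 6.94 CPM in the day 0 pair and 68.4 and 69.5 CPM in the day 2 pair and 6.78 and 6.59 CPM in the day 0 pair and 51.1 and 53.5 CPM in the day 2 pair. SSTR1, a somatostatin receptor, fell from 5.69 to 1.54 CPM, and OXTR, the oxytocin receptor, from 2.57 to 0.309 CPM. In the glucocorticoid list 11 of 16 tested members were higher and 1 lower. Besides receptor targets it held the receptor gene NR3C1 and the enzyme gene HSD11B1, both called higher. KLF9 had 15.5 and 13.3 CPM in the day 0 pair and 106 and 104 CPM in the day 2 pair and MAOA, monoamine oxidase A, had 21.7 and 22.4 CPM in the day 0 pair and 79.4 and 84.4 CPM in the day 2 pair, but the often-used targets FKBP5 and TSC22D3 did not pass the test (log2 fold changes -0.31 ± 0.18 and -0.09 ± 0.08). Of 17 tested clock genes 9 were higher and 3 lower, with NFIL3 going from 22.7 to 60.5 CPM and CIART from 7.31 to 2.36 CPM.

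Some genes left or entered the detected range. With at most 3 counts over both libraries of one day and at least 1 CPM on the other, 25 genes were higher and 17 lower at day 2. BCL2A1, a survival protein of the BCL2 family, had 0 counts at day 0 and 224 over both day 2 libraries, at least 79.9-fold higher against a floor of 3 counts over both libraries. CSF3, which codes for the growth factor G-CSF, had 0 and 73 counts and was at least 26.04-fold higher. CST4, a salivary cystatin, had 166 counts in the day 0 pair and 0 in the other, at least 51.7-fold lower. Its relative CST1 had 167 and 3, a 52.02-fold ratio (95% counting interval 17.5 to 255), and cystatins of this group are near-identical, so their counts are uncertain. ADRA1B, an alpha-1 adrenergic receptor, had 81 and 0 counts, while ADRA1D, of the same family, had 0.118 and 0.0687 CPM in the day 0 pair and 3.204 and 3.53 CPM in the day 2 pair.

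Long noncoding genes were called in 40.1% of 1944 cases, 481 higher and 298 lower, against 72.5% of 13454 protein-coding genes, 4769 higher and 4987 lower. These gene types were not matched for level, and calls also differed by level. Of 2731 tested genes under 1 CPM, 681 were higher and 208 lower. Of 7315 at 10 to 100 CPM, 2762 were higher and 3027 lower. The 10 most abundant genes held 6.59% of counts at day 0 and 10.3% at day 2. The part of these differences in other results was not tested.

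Genes often used as references for such comparisons did not share 1 direction, with 8 of 16 higher and 6 lower, which turned to 7 higher and 8 lower with library totals. RPLP0 went from 914 to 1595 CPM, ACTB from 4452 to 2691 CPM, and TBP and HPRT1 did not pass the test (log2 fold changes 0.08 ± 0.12 and -0.14 ± 0.12).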
